A study of Mus musculus with 15 samples.

Results

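Trem2 and 6 genes that carry or restrain its signal were followed through 15 mouse brain RNA-seq libraries. They are the receptor Trem2, the adaptors Tyrobp (DAP12) and Hcst (DAP10), the kinase Syk, and 3 further proteins of the pathway, Plcg2, Inpp5d and Vav1. Below, "downstream" means past the receptor and its adaptors, not an order after Syk. The genes were chosen by symbol, with earlier results of these data known. All 7 were found among the 46078 Ensembl genes of the deposited count table. The mice were 12 months old and formed 3 groups of 5. Wild-type (WT) mice and APP-PS1 mice received 100 µL of PBS, and a further APP-PS1 group received 0.8 mg of an antibody against CD8a (clone 2.43), in each case by 10 intraperitoneal injections over 4 weeks. APP-PS1 mice carry 2 transgenes, a mouse/human chimera of APP with the Swedish mutation (Mo/HuAPP695swe) and a human presenilin 1 lacking an exon (PS1-dE9). The prion protein promoter drives both in neurons of the CNS, so the microglia that express Trem2 are not the cells the transgenes were aimed at. Animals were perfused and tissue came from 1 hemisphere; the labels do not name the region. The treated mice are set against mice given PBS, since no library from mice given the isotype control antibody that the labels mention was analysed here. The comparisons ask how transgenic mice differed from WT and how transgenic mice given the anti-CD8a antibody differed from those given PBS.

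Trem2 is a lipid-sensing receptor on the surface of microglia, the resident macrophages of the brain, and is best known there for the clustering of microglia around amyloid plaques. It has no signalling tail of its own and pairs with Tyrobp, whose phosphorylated ITAM recruits Syk; Hcst is an alternative adaptor that links receptors to PI3 kinase. Downstream, Plcg2 cleaves PIP2 to release calcium, Vav1 activates Rac-type GTPases that move the cytoskeleton, and Inpp5d (SHIP1) removes a phosphate from PIP3 and so restrains the pathway. Human variants in TREM2, PLCG2 and INPP5D are associated with Alzheimer's disease.

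In GRCm38 coordinates Trem2 lies at chr17:48346401-48354147 on the plus strand, Syk at chr13:52583173-52648792, Plcg2 at chr8:117498291-117635142, Inpp5d at chr1:87620312-87720507 and Vav1 at chr17:57279100-57328031, all on the plus strand. The adaptors are neighbours: Tyrobp (chr7:30413760-30417585, plus strand) and Hcst (chr7:30417712-30419854, minus strand) end tail to tail with 126 bases between them and share no exon. Reads that ran past the end of either gene could therefore fall near the other, and the sources used here do not give the strand setting of the counting.

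The stretches just upstream of 5 start sites, with and without a match, show what the promoters hold of the recognition letters of PU.1, a transcription factor of myeloid cells. Capitals mark the classical PU box, written GAGGAA, or TTCCTC when it lies on the other strand. The sequences are the 100 bases before each RefSeq start site (GRCm38.p6), 5′ to 3′ on the plus strand. Their places are chr17:48346301-48346400 for Trem2, chr1:87620212-87620311 for Inpp5d, chr17:57279000-57279099 for Vav1, chr13:52596782-52596881 for the second Syk start and chr8:117498175-117498274 for Plcg2. The second Syk start lies inside the Syk span given above, and the RefSeq start of Plcg2 lies shortly before its start given there. The first Syk start is not printed.
Trem2: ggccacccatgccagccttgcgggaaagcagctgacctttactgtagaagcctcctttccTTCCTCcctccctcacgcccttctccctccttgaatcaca
Inpp5d: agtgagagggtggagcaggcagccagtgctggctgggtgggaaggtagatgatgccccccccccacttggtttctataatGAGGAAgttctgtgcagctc
Vav1: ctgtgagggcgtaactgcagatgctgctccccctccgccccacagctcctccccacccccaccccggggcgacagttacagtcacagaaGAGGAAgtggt
Syk: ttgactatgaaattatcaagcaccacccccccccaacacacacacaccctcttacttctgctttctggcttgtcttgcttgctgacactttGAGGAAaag
Plcg2: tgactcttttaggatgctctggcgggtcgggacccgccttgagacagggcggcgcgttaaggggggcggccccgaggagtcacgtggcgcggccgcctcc
The first 4 stretches hold the letters and that of Plcg2 does not; no binding was measured, and nothing about the changes reported below is read from this. RefSeq windows of 300 bases, from 250 before to 50 after the start, were at hand for 6 of the 7 genes, Syk with 2 start sites; Tyrobp is named only. A PU box on either strand was present in the windows of Trem2, Inpp5d and Vav1 and of the second Syk start, and absent from those of Hcst, Plcg2 and the first Syk start. It is a common motif: 28.3% of all 32851 windows of that length hold it. The overlapping 7-letter ETS motif AGGAAGT (9.35% of windows, either strand) was present in the windows of Hcst, Inpp5d and Vav1. The first Syk start and Plcg2 have the windows richest in CpG of the 7 (31 and 21 CpG, GC content 72% and 60%), while Trem2, Hcst, Inpp5d and Vav1 have 5 to 11 CpG; the median over all windows is 7 CpG and 52.7% GC. A match is a string of letters, not a measured binding site.

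Library depth ranged from 17736524 to 36485809 counts in genes. Levels are CPM, the share of a library's counts on the usual parts-per-10⁶ scale, with TMM factors applied, and changes are fitted by edgeR's quasi-likelihood test over all 15 libraries with the labelled sex as a covariate, so a fold change compares groups at equal sex and can differ from the ratio of plain means; "adjusted p" is Benjamini-Hochberg over 18974 genes. WT mice were labelled 4 female and 1 male, and each APP-PS1 group 2 female and 3 male. In 1 library, APP-PS1 PBS replicate 1, Xist and Y-linked genes went against the labelled sex, and 5 libraries held over 1000 CPM of the choroid plexus gene Ttr (2 WT, 2 APP-PS1 PBS, 1 anti-CD8a). Brain identity was clear: the summed neuron markers stood at 5358 to 5986 CPM in every library and the 11 microglia markers at 354 to 912 CPM, with none at 0. The 12 T and NK cell markers summed to 1.43 to 2.91 CPM; for Cd8a itself 33, 42 and 53 counts were found in all in the WT, APP-PS1 PBS and anti-CD8a groups, too few to judge depletion in the tissue.

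Trem2 stood at 11.2, 11.6, 11.4, 11.4 and 10.8 CPM in the 5 WT mice (mean 11.3 ± 0.327, SD, n = 5). APP-PS1 mice given PBS had 33.7, 22.4, 24.3, 42.4 and 27.8 CPM (30.1 ± 8.11, SD, n = 5). Those given anti-CD8a had 22.6, 31.2, 59.2, 32.5 and 24.2 CPM (33.9 ± 14.7, SD, n = 5). Every transgenic mouse was above every WT mouse, and the transgenic groups overlapped widely. The receptor varied less among the WT than among the transgenic libraries: its coefficient of variation was 2.9% in WT, 26.9% with PBS and 43.4% with anti-CD8a, or 17.9% without replicate 3 of that group. The WT figure is below the 5.44% that counting error alone gives at these counts, so it is not read as a biological spread. The widest value, 59.2 CPM in anti-CD8a replicate 3, came from the library that was highest of its group for all 7 genes, and APP-PS1 PBS replicate 4 was likewise the highest of its own group for all 7.

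Tyrobp, which carries the signal of Trem2 and of several other receptors, followed a like course. It had 17.6, 17.1, 14.3, 18.2 and 20.03 CPM in WT (17.4 ± 2.09, SD, n = 5), 49.2, 36.8, 38.7, 66.3 and 48.8 CPM in APP-PS1 mice given PBS (48.0 ± 11.7), and 31.4, 45.9, 84.5, 51.0 and 37.0 CPM with anti-CD8a (49.95 ± 20.7). Again no transgenic value fell into the WT range. Within each transgenic group the 5 mice took the same order for Trem2 and for Tyrobp. It ran from replicate 4 down to replicate 2 with PBS and from replicate 3 down to replicate 1 with anti-CD8a. Hcst took that order with anti-CD8a as well. In WT the orders of Trem2 and Tyrobp differed, with replicate 5 lowest for Trem2 and highest for Tyrobp.

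Hcst was close to the limit of detection, with 24 counts over the 5 WT libraries (1 to 9 each), 29 over the APP-PS1 PBS libraries (2 to 9) and 53 over the anti-CD8a libraries (3 to 19). Its means were 0.152 ± 0.0873, 0.216 ± 0.0839 and 0.337 ± 0.203 CPM (SD, n = 5 each), and the groups overlapped. It did not pass the filter on low counts, so the main fit has no test of it. An alternative fit without that filter included Hcst. It did not call the gene in APP-PS1 PBS against WT or in anti-CD8a against PBS. The outcome of that fit for anti-CD8a against WT is not given here. A mean of 0.152 CPM is near the 3 counts (0.0824 to 0.166 CPM, depending on the library) taken as the floor of detection, counting error only. Neither a difference nor its absence is read for this adaptor at this depth.

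Syk, the kinase that docks on Tyrobp, had 7.05, 6.02, 5.66, 4.66 and 5.60 CPM in WT (5.80 ± 0.861, SD, n = 5), 7.31, 6.85, 7.20, 8.79 and 6.40 CPM in APP-PS1 mice given PBS (7.31 ± 0.897), and 8.48, 9.53, 9.80, 6.37 and 7.20 CPM with anti-CD8a (8.28 ± 1.48). WT replicate 1 reached into the range of both transgenic groups. Plcg2, the phospholipase, had 7.78, 7.87, 6.76, 6.53 and 7.74 CPM in WT (7.33 ± 0.638), 9.39, 7.28, 8.74, 9.40 and 7.01 CPM with PBS (8.36 ± 1.15) and 9.35, 9.42, 12.6, 8.47 and 8.16 CPM with anti-CD8a (9.60 ± 1.76). APP-PS1 PBS replicates 2 and 5 lay within the WT range of Plcg2, while all 5 anti-CD8a values lay above it.

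Inpp5d, the lipid phosphatase that restrains the pathway, had 16.02, 14.7, 15.3, 17.1 and 12.5 CPM in WT (15.1 ± 1.71, SD, n = 5), 21.5, 18.6, 23.3, 29.8 and 17.9 CPM in APP-PS1 mice given PBS (22.2 ± 4.75), and 18.8, 26.9, 29.5, 18.1 and 20.1 CPM with anti-CD8a (22.7 ± 5.18). Vav1, the exchange factor for Rac, had 4.46, 4.13, 4.74, 4.07 and 4.50 CPM in WT (4.38 ± 0.276), 6.81, 6.15, 5.90, 7.81 and 6.29 CPM with PBS (6.59 ± 0.758) and 6.54, 8.02, 11.5, 7.09 and 5.85 CPM with anti-CD8a (7.80 ± 2.21). Both genes were higher in every transgenic mouse than in any WT mouse.

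**Figure D1:**
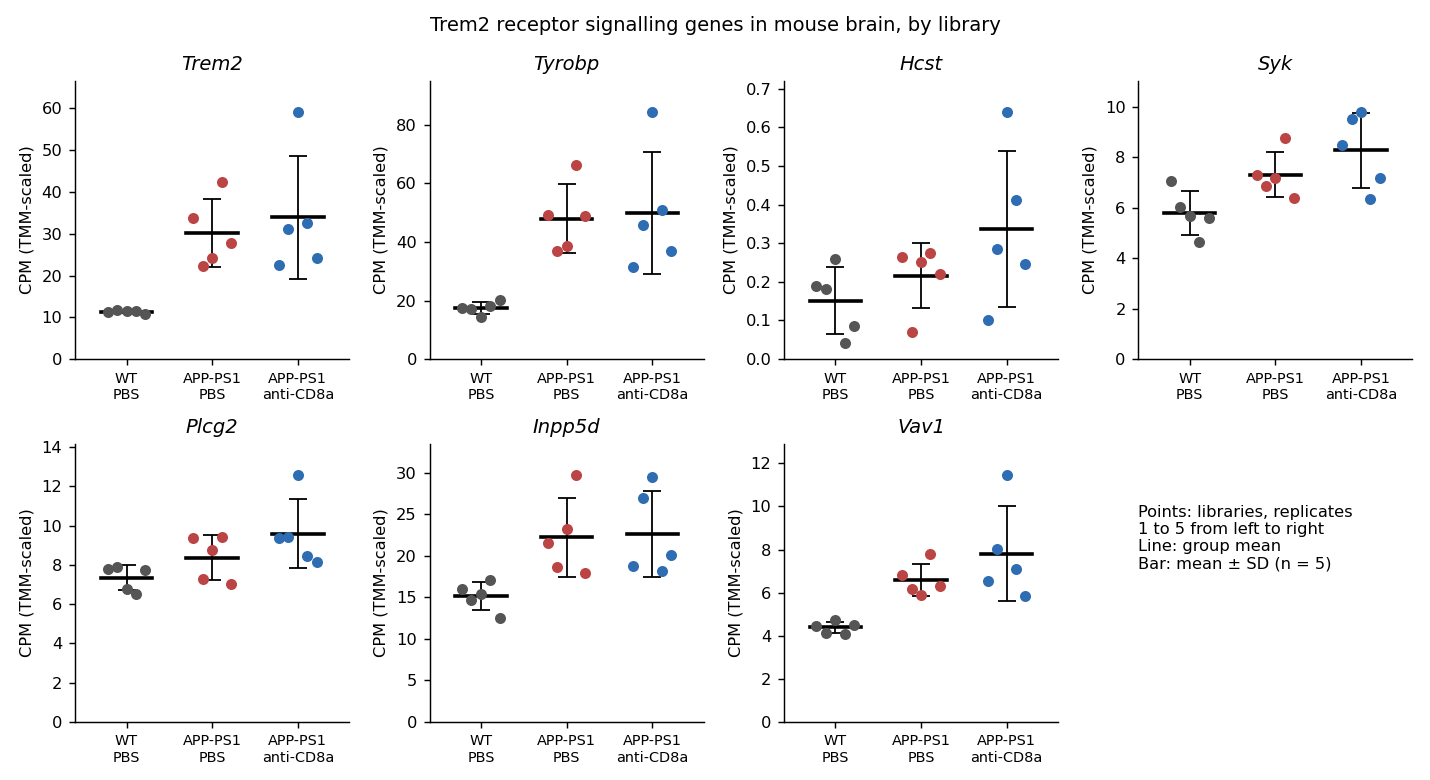
CPM of the 7 genes (vertical axes, each from 0) in WT mice given PBS (grey), APP-PS1 mice given PBS (red) and APP-PS1 mice given anti-CD8a (blue); points are libraries, horizontal lines group means and bars the SD (n = 5). Trem2, Tyrobp, Inpp5d and Vav1 are higher in all 10 transgenic mice than in any WT mouse, and the highest point of the anti-CD8a group is replicate 3 in each panel.

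Compared per length of sequence, as RPKM, the CPM divided by the length in kilobases, Tyrobp was the most abundant transcript of the set in WT brain at 26.1 ± 3.13 RPKM (SD, n = 5), with all exons of a gene as its length. Trem2 (2.28 ± 0.0662 RPKM), Inpp5d (1.99 ± 0.224) and Plcg2 (1.71 ± 0.148) followed, and Vav1 (1.19 ± 0.0749), Syk (0.619 ± 0.092) and Hcst (0.210 ± 0.121) were lower. Inpp5d overlapped Trem2 above it and Plcg2 below it, so the order of those neighbours was not clear of the spread. Trem2's place depends on its length: its exons span 4946 bases, but the principal transcript only 1088, and with principal transcripts it stood at 10.4 ± 0.301 RPKM against 30.9 ± 3.71 for Tyrobp and 3.07 ± 0.345 for Inpp5d. With either length Tyrobp was first and Hcst last.

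In APP-PS1 mice given PBS, the receptor, its main adaptor and 2 of the downstream genes rose over WT. Trem2 was 3.01-fold higher (log2 fold change 1.59, SE 0.22, edgeR adjusted p = 0.00268) and Tyrobp 2.99-fold higher (1.58, SE 0.23, adjusted p = 0.0048). Inpp5d rose by 1.64-fold (0.71, SE 0.12, adjusted p = 0.00549) and Vav1 by 1.62-fold (0.69, SE 0.14, adjusted p = 0.015). All 4 were higher in 5 of 5 mice than in any WT mouse. Syk was not called, with 1.34-fold (95% interval 1.1 to 1.61, adjusted p = 0.192), and neither was Plcg2, with 1.17-fold (0.973 to 1.42, adjusted p = 0.52).

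So 4 of the 6 tested members rose, against 0.98% of all tested genes called higher in this comparison. The same 4 did not overlap between groups, against 1.83% of tested genes with all 5 transgenic values higher. The members' median log2 fold change was 0.70, beside -0.01 over all genes. As the members were chosen with earlier results of these data known, these contrasts with all genes only describe the set. The smaller changes rest on the sex covariate: without it Inpp5d (log2 fold change 0.56, edgeR adjusted p = 0.161) and Vav1 (0.59, adjusted p = 0.0832) were no longer called, and in mice labelled female alone (4 WT, 2 APP-PS1 PBS) Trem2 (1.64, adjusted p = 0.0716), Inpp5d (0.62, adjusted p = 0.168) and Vav1 (0.71, adjusted p = 0.11) were not, which left Tyrobp. With sex assigned by Xist and the Y-linked genes, 4 members were called.

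Anti-CD8a left no called change in any of these genes relative to PBS in APP-PS1 mice. The fold changes of treated over PBS mice were 1.10 for Trem2 (95% interval 0.82 to 1.48), 1.03 for Tyrobp (0.745 to 1.42), 1.12 for Syk (0.94 to 1.34), 1.14 for Plcg2 (0.955 to 1.36), 1.00 for Inpp5d (0.85 to 1.18) and 1.16 for Vav1 (0.965 to 1.4). The edgeR adjusted p ran from 0.467 to 0.996. These intervals leave room for a rise of Trem2 by up to 1.48-fold or a fall to 0.82 of the PBS level. None of the 6 tested members passed an unadjusted p of 0.05, and none was free of overlap between the groups (0.954% of tested genes had all 5 treated values higher). The share of genes called higher over the whole table was 0%: edgeR called 0 of 18974 genes in either direction (2489 at an unadjusted p under 0.05), and DESeq2 called 143, none of them a member. Without anti-CD8a replicate 3 the log2 fold change of Trem2 turned from 0.14 to -0.08 and that of Tyrobp from 0.04 to -0.18.

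Anti-CD8a-treated APP-PS1 mice set against WT share the WT libraries with the first comparison, so the values are given side by side and are no second line of evidence. Trem2 was 3.31-fold higher (log2 fold change 1.73, SE 0.21, edgeR adjusted p = 0.000898), Tyrobp 3.07-fold, Vav1 1.88-fold and Inpp5d 1.64-fold, each in 5 of 5 mice. Syk, at 1.5-fold, was called here (0.58, SE 0.13, adjusted p = 0.0189) although its ranges overlapped, with 4 of 5 treated mice above all WT mice. Plcg2 showed the reverse: all 5 treated mice were above WT, but 1.34-fold (95% interval 1.11 to 1.6) was not called (adjusted p = 0.122). In all, 5 of 6 tested members were called, against 1.74% of tested genes called higher, and 5 were free of overlap, against 2.16%. The call of Syk depended on single libraries: its edgeR adjusted p was 0.134 without anti-CD8a replicate 3, 0.0582 without replicate 2 and 0.0538 without WT replicate 3. It was also lost without the sex covariate (0.0595), as was that of Inpp5d (0.0918), and without the 5 Ttr-rich libraries (0.0582). A call with anti-CD8a and none with PBS does not show that the transgenic groups differ in Syk; their direct comparison is the one given above.

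**Figure D2:**
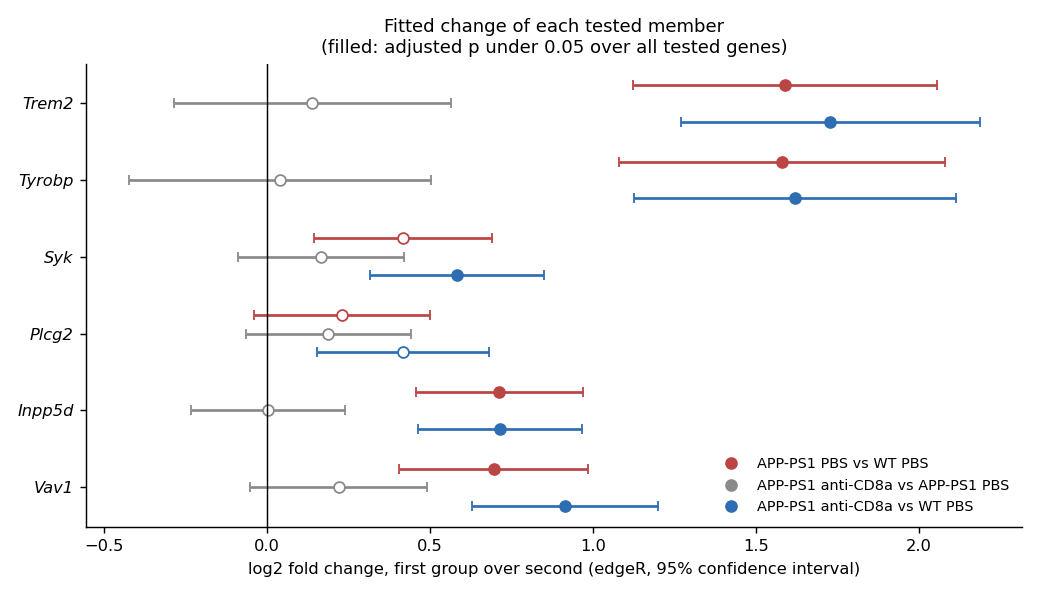
Fitted log2 fold change (horizontal axis) of the 6 tested members in the 3 comparisons, with 95% confidence intervals; filled points have an edgeR adjusted p under 0.05 over all tested genes. Trem2 and Tyrobp lie near 1.6 against WT in both transgenic groups, and all 6 intervals for anti-CD8a against PBS span 0.

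In whole tissue, more cells of a type and more RNA per cell cannot be told apart, so the members were set against markers of microglia in the same libraries. The mean log2 level of the 11 microglia markers was 0.46 higher in APP-PS1 PBS mice than in WT, and 0.55 higher with anti-CD8a. Among them Cx3cr1 rose in APP-PS1 PBS mice (log2 fold change 0.57, edgeR adjusted p = 0.00951), while P2ry12 (0.39, adjusted p = 0.0598) and Tmem119 (0.11, adjusted p = 0.735) were not called; 5 of 11 passed the test. Trem2 and Tyrobp rose by more than these markers. Their log2 level relative to the marker mean was 0.88 and 0.95 higher in APP-PS1 PBS mice than in WT (exact permutation test, two-sided, p = 0.00794 each, the smallest that 5 against 5 allows; adjusted p = 0.0417 over 21 tests). With anti-CD8a the excess over WT was 0.91 and 0.87 (exact permutation, adjusted p = 0.0417 each). Unlike the edgeR fits, the permutation tests have no sex covariate. WT and APP-PS1 groups differ in their mix of sexes, so these values cannot be set directly beside the fitted fold changes.

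For the downstream members this test made no call. Relative to the marker mean, Inpp5d differed by 0.06 and Vav1 by 0.08 between APP-PS1 PBS and WT mice (exact permutation, adjusted p = 0.75 and 0.692), Syk by -0.15 (0.5) and Plcg2 by -0.29 (0.167). Anti-CD8a against PBS gave -0.09 to 0.11 over the 7 genes, with 0 of 7 called by this test (0 at an unadjusted p under 0.05). Against a second list of 9 pan-myeloid markers, whose mean was 0.65 higher in APP-PS1 PBS mice, Trem2 (0.69) and Tyrobp (0.76) still exceeded the markers (exact permutation, adjusted p = 0.0333 each), and Plcg2 fell below them (-0.48, adjusted p = 0.0333). Hcst is left out of this description because the pseudocount exceeds its level. Among other immune cells, the border macrophage and monocyte markers summed to 10.8 to 33.4 CPM with no member of that list called, and the neutrophil markers to 0.496 to 3.56 CPM, with Ly6g at 0 in the APP-PS1 PBS group and Elane at 0 in the anti-CD8a group. Of the astrocyte markers, 2 of 5 were called higher in APP-PS1 PBS mice over WT and 1 of 5 with anti-CD8a. The median log2 fold changes of the 5 were small, 0.157 and 0.126. Their sums ran from 1704 to 1919 CPM in WT, 2294 to 2744 CPM with PBS and 2124 to 2942 CPM with anti-CD8a, with none at 0. The part of these cells in the result was not tested.

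The 21 pairs of members show which moved apart. In APP-PS1 PBS mice against WT, 12 of 21 pairs differed in their change (exact permutation tests, two-sided, no sex covariate, Benjamini-Hochberg over 21 pairs). In 3 of them 1 gene is Hcst; these are not read here, since the 0.5 CPM added to each value is larger than the level of Hcst itself. Trem2 and Tyrobp were not shown to differ from each other: the log2 ratio of Trem2 to Tyrobp was -0.67 ± 0.0967 in APP-PS1 PBS mice and -0.60 ± 0.201 in WT (SD, n = 5; exact permutation, adjusted p = 0.553). Each rose by more than Syk, Plcg2, Inpp5d and Vav1. The excess of Trem2 was 1.03 over Syk, 1.17 over Plcg2, 0.82 over Inpp5d and 0.81 over Vav1, and that of Tyrobp 1.10, 1.24, 0.89 and 0.88 (exact permutation, adjusted p = 0.0167 for all 8).

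Of the downstream genes, Plcg2 lagged Vav1 by 0.36 (-0.36, exact permutation, adjusted p = 0.0278), and the pairs among Syk, Inpp5d and Vav1 did not pass. The call of Plcg2 against Vav1 was lost without WT replicate 1, 2 or 5 (exact permutation, adjusted p = 0.0556 each). Anti-CD8a-treated mice against WT gave 11 called pairs. These were Trem2 and Tyrobp each against Syk, Plcg2, Inpp5d and Vav1, 2 pairs with Hcst, and Plcg2 against Vav1 (-0.38, exact permutation, adjusted p = 0.0303). With 0.1 CPM added in place of 0.5, both pairs with Hcst lost the call (Trem2 0.75, adjusted p = 0.0833; Tyrobp 0.69, adjusted p = 0.197; exact permutation). Without WT replicate 2, Plcg2 against Vav1 (0.0606) and Tyrobp against Syk (0.05) were lost. Anti-CD8a against PBS gave 0 of 21 (smallest unadjusted p 0.0714, exact permutation).

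**Figure D3:**
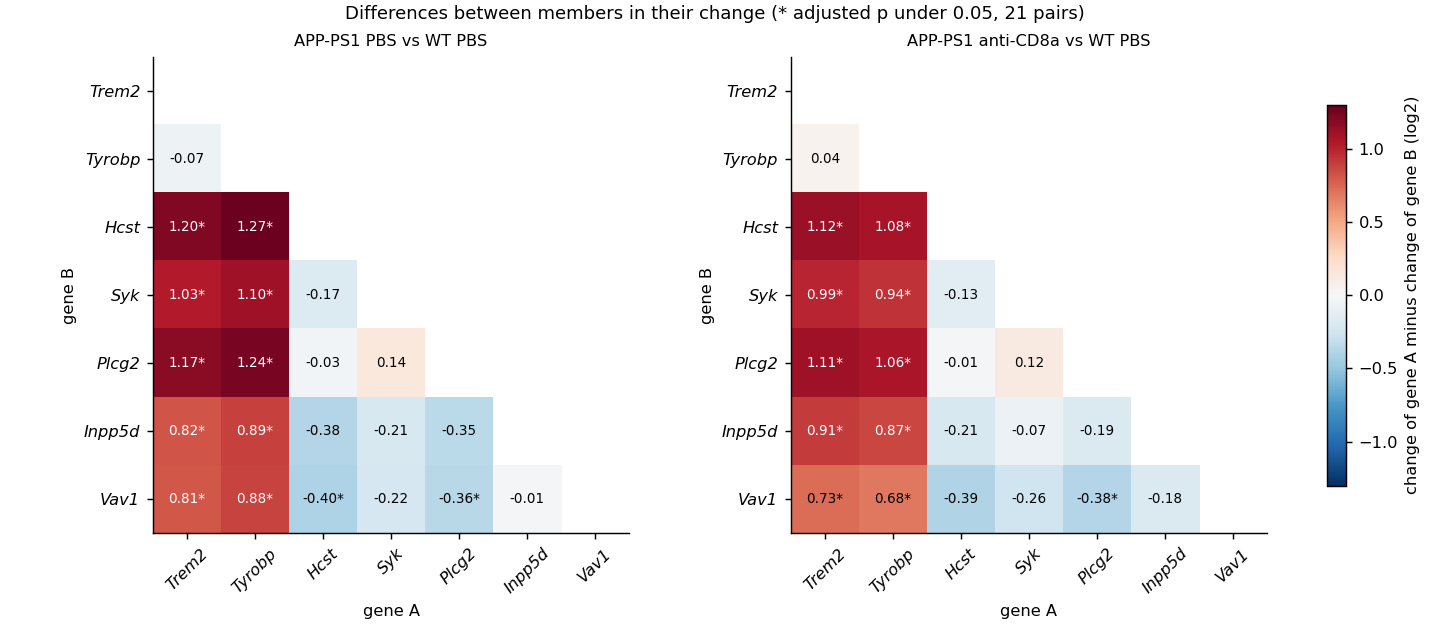
Change of gene A (columns) minus change of gene B (rows) in log2 units, for APP-PS1 PBS against WT (left) and anti-CD8a-treated APP-PS1 against WT (right); colour runs from blue (A changed less) to red (A changed more), and an asterisk marks an adjusted p under 0.05. The Trem2 and Tyrobp columns are red against Syk, Plcg2, Inpp5d and Vav1 and near 0 against each other; the Hcst cells depend on the 0.5 CPM added.

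Across individual mice, deviations from the group mean of Trem2 followed those of Tyrobp and Vav1 most closely, with Pearson's r of 0.94 and 0.91 over the 15 libraries; as all values come from the same libraries, these are descriptions. Leaving out anti-CD8a replicate 3, they were 0.87 and 0.78. Trem2 and Tyrobp tracked the microglia marker mean (r = 0.91 and 0.94; 0.78 and 0.89 without that library), whereas Syk did so least of the 7 (0.35; 0.04 without it). Syk instead stood closest to Plcg2 (0.75; 0.72 without it).

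The 5 genes most like each member in this sense overlapped for some members: Trem2 shared Hcls1, Ncf1 and Itgax with Vav1, and Cst7 and Cd68 with Tyrobp. Those of Trem2 were Hcls1 (r = 0.97), Ncf1, Cd68, Cst7 and Itgax, and those of Tyrobp included Cst7 (0.96), Mpeg1, Cd68 and Fcer1g, which encode leukocyte signalling, phagocyte oxidase, lysosomal, integrin and Fc receptor proteins. Cst7 rose from a mean of 0.35 CPM in WT to 19.3 CPM in APP-PS1 PBS mice, and Cd68 from 7.93 to 22.2 CPM. Vav1 had Hcls1 (0.95), Hexa, Ncf1, Laptm5 and Itgax. The genes most like Syk included Tns3 (0.92), Daam2, Rapgef3 and Gpr17, the last a receptor of oligodendrocyte precursors. The group means of the last were 57.8, 59.1 and 55.2 CPM in WT, APP-PS1 PBS and anti-CD8a mice, and those of Tns3 137.1, 143.8 and 129.2 CPM. Plcg2 had Sh3bp2 (0.89), Myc, Sipa1l2, Ankrd13a and Fam98c, and Inpp5d had 1700017B05Rik (0.92), Exd2, Mertk, Wdfy4 and Arhgap45. Most of these names did not return by Spearman's rank correlation, which named again 3 of 5 for Tyrobp and Plcg2, 2 of 5 for Inpp5d, and 1 of 5 for Trem2, Syk, Vav1 and Hcst. For Hcst, too sparse for a weak relation to be read, the nearest was Tlr6 (0.87).

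Female transgenic mice, by their Xist and Y-linked reads, had 27.8 to 59.2 CPM of Trem2 (5 mice, median 33.7) and male ones 22.4 to 32.5 CPM (5 mice, median 24.2). Tyrobp ran from 45.9 to 84.5 CPM in those females and from 31.4 to 51.0 CPM in males. The ranges overlapped, and the difference between the sexes was not tested.

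Other genes of the pathway around the receptor were listed with earlier results of these data known, so shares of called genes only describe the list. It held 107 genes in 13 classes, and 93 could be tested. In APP-PS1 PBS mice 16 of them rose and 0 fell (0.98% of all tested genes were called higher), with a median log2 fold change of 0.09 beside -0.01 over all genes; the calls lay in some classes and not across the list. All 3 tested receptors that also couple to Tyrobp, or are tied to it in microglia, rose: Siglech (1.53-fold, edgeR adjusted p = 0.00834), Clec5a (1.82-fold, adjusted p = 0.0101) and Csf1r (1.51-fold, adjusted p = 0.00571). Cd33, a sialic acid receptor, rose by 1.49-fold (adjusted p = 0.0196), and Treml2, at 0.43 CPM in WT, was not called (2.93-fold, adjusted p = 0.12). Treml2 was called in anti-CD8a against WT (4.15-fold, adjusted p = 0.00966) and not in anti-CD8a against PBS (1.42-fold, adjusted p = 0.537). Trem1, Trem3, Treml1 and Treml4 had 10 to 40 counts over all 15 libraries and were not tested.

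No ligand or sheddase of Trem2 was called. Apoe, a lipid carrier that binds Trem2, stood at 1321 ± 120 CPM in WT, 1329 ± 229 in APP-PS1 PBS and 1452 ± 119 in anti-CD8a mice (SD, n = 5 each), and none of the 3 tested ligand genes was called. Adam10, which cleaves Trem2 from the cell surface, had a log2 fold change of 0.02 (SE 0.05, edgeR adjusted p = 0.934) in APP-PS1 PBS mice, and Adam17 0.16 (SE 0.07, adjusted p = 0.438).

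Close to the ITAM, the tyrosine phosphatase Ptprc (CD45), which controls Src family kinases, rose by 2.39-fold (edgeR adjusted p = 0.000113), and none of the Src family kinases was called in APP-PS1 PBS mice. Lyn stood at 1.3-fold there (edgeR adjusted p = 0.137), at 1.34-fold in anti-CD8a against WT (adjusted p = 0.0492, called) and at 1.03-fold in anti-CD8a against PBS (adjusted p = 0.873). None of the 5 Tec family and Zap70 genes passed, among them Btk (log2 fold change 0.58, adjusted p = 0.0932). The scaffold Lcp2 (SLP-76) rose by 1.56-fold (adjusted p = 0.0196). Ptpn6 (SHP-1), a phosphatase that opposes ITAM signals, rose by 2.15-fold (adjusted p = 0.00623), and was the sole one of the 10 genes in the class of phosphatases and brakes to be called.

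Further down, 1 of 10 PI3 kinase and Akt genes rose, Pik3cg at 1.57-fold (edgeR adjusted p = 0.0144), 0 of 11 genes of phospholipase C and calcium, 0 of 4 of the Card9 module and 0 of 5 kinase and Wnt targets. The class of Vav proteins and small GTPases, the surroundings of Vav1, had 4 of 11 called, namely Nckap1l (1.64-fold), Dock2 (1.69-fold), Arhgdib (1.41-fold) and Abi3 (1.74-fold), all of them regulators of actin or of small GTPases. Of the 6 tested transcription factors of myeloid cells, 4 rose, among them Spi1, which encodes PU.1 (1.61-fold, adjusted p = 0.0324), Irf8 (1.89-fold) and Runx1 (2.06-fold). Siglech belongs to the microglia markers and Csf1r, Ptprc and Spi1 to the pan-myeloid markers as well.

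Anti-CD8a against PBS called 0 of these 93 genes (median log2 fold change 0.08, beside 0.01 over all genes), and anti-CD8a against WT called 24, all higher (1.74% of all tested genes were). Beyond those already named, the latter included the scaffolds Lat2 (2.03-fold) and Blnk (1.5-fold), the PI3 kinase genes Pik3ap1 (1.85-fold) and Pik3r5 (1.45-fold), the calcium channel gene Itpr2 (1.27-fold), and Rac2 (1.67-fold) and Dock8 (1.65-fold) from the small GTPase class.

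**Figure D4:**
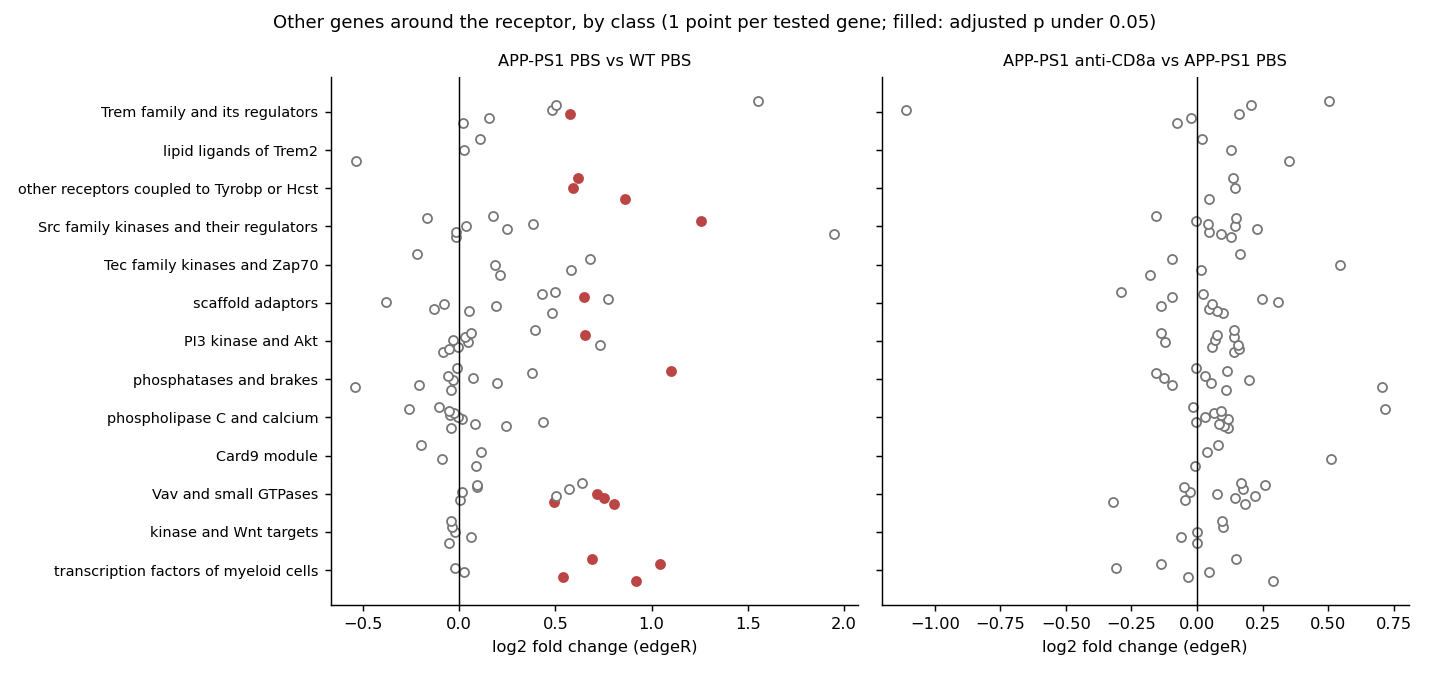
Fitted log2 fold changes of the 93 tested pathway genes by class (rows), 1 point per gene, for APP-PS1 PBS against WT (left) and anti-CD8a against PBS in APP-PS1 mice (right); filled points have an edgeR adjusted p under 0.05. Filled points are 16 on the left, most in the receptor, small GTPase and transcription factor classes, and 0 on the right.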

How the data were processed

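Poly(A) RNA from brain tissue was sequenced from stranded TruSeq libraries on a NextSeq500, per the labels' protocols. The authors deposited 1 table of raw counts per Ensembl gene for 15 libraries; Bowtie2 2.2.2, HTSeq 0.11.2, FastQC and DESeq2 are named in the submitters' processing notes, with GRCm38, and no strand setting is stated there. The 5 HTSeq summary lines were left out; reads in no feature came to 20.0% to 25.9% and ambiguous reads to 1.64% to 1.79% of each library. Gene names matched 45143 of 46078 identifiers, and places and lengths came from GENCODE M21. Libraries were normalised by TMM and tested with edgeR 4.0.16 (R 4.3.3; filterByExpr, robust quasi-likelihood, group plus labelled sex, 11 residual degrees of freedom) at an adjusted p of 0.05. Exact permutation tests of log2(CPM + 0.5) over the 252 splits of 5 against 5, without a sex covariate, compared members with markers and with each other. Whether replicates were separate animals rests on their animal numbers in the titles.

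The members, marker lists and pathway list were chosen with earlier results of these data known. From each class of the pathway list, genes past the threshold were named, up to 4 per class and comparison by smallest p; the 5 genes most like a member were those with the highest Pearson r of deviations from group means, among 15683 genes with a mean of at least 1 CPM; genes not called are given as examples of the classes, and a few genes the rule names are not reported here. Data were simulated for the 18974 tested genes without a sex effect, with a small random subset of genes changed at each size. The fit for APP-PS1 PBS against WT recovered 52% of genes changed by 1.5-fold and 78% of those changed 2-fold, with 4 false calls. For anti-CD8a against PBS it recovered 66% and 80%, and for anti-CD8a against WT 72% at both sizes. Each comparison was simulated in a single run, so these shares are rough. Alternatives were DESeq2 1.42.0, limma-voom (limma 3.58.1), other scalings, filters, covariates, subsets of libraries, lengths and pseudocounts. Correlations without anti-CD8a replicate 3 and lengths of principal transcripts were added after seeing the data.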

Additional observations from a re-analysis of the deposited data

Results flagged for a closer look

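In 3 of the 21 combinations of gene and group, 1 library stood apart from the other 4 by more than Dixon's 95% limit (0.71 of the range for 5 values); chance gives about 1 in 20. Trem2 in anti-CD8a replicate 3 was 59.2 CPM, against 22.6 to 32.5 CPM in the rest of its group. Plcg2 in that library was 12.6 CPM, against 8.16 to 9.42 CPM. Hcst in APP-PS1 PBS replicate 2 was 0.0707 CPM, or 2 counts, against 0.221 to 0.275 CPM in the others.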

How the results depend on the processing

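Of the alternative values of the 6 members' log2 fold changes, 472 kept their direction and side of the threshold, 11 lost the call and 21 changed sign, all of the last in anti-CD8a against PBS, where no member was called. Tyrobp was called against WT under every alternative run, in both comparisons. Members called in APP-PS1 PBS against WT numbered 4 in all 15 fits that left out a library, 2 without the sex covariate and 1 in mice labelled female alone; against WT with anti-CD8a they numbered 3 without the sex covariate. Genes called overall in APP-PS1 PBS against WT (205) became 361 with DESeq2, 122 without the sex covariate, 80 in labelled females and 102 without the Ttr-rich libraries (150 to 299 leaving out 1 library). Anti-CD8a against PBS (0) gave 143 with DESeq2, 2 without a filter, 3 with the 2 groups alone, 1 in labelled females, 5 without the Ttr-rich libraries, and 0 to 5 leaving out 1 library. Anti-CD8a against WT (366) gave 227 with the 2 groups alone, 216 without the Ttr-rich libraries, and 144 to 461 leaving out 1 library, the lowest without anti-CD8a replicate 3.

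In anti-CD8a against PBS, Tyrobp turned to -0.008 with limma-voom and -0.021 without the Ttr-rich libraries, and Syk to -0.009 without them. Inpp5d turned to -0.006 with median-of-ratios factors and with DESeq2, -0.007 with upper-quartile scaling, with a mean of at least 1 CPM and with the 2 groups alone, -0.003 without a filter, -0.039 with a choroid plexus covariate and -0.177 without the Ttr-rich libraries. Leaving out 1 library gave -0.081 to 0.250 for Trem2, -0.180 to 0.146 for Tyrobp and -0.121 to 0.076 for Inpp5d. Relative to markers, the pan-myeloid list gave 4 called members (Hcst, not read, among them) in each comparison with WT, Inpp5d at -0.127 and Vav1 at -0.114 (PBS) and -0.044 (anti-CD8a); a pseudocount of 0.1 CPM gave Hcst at 0.189 and Inpp5d at 0.002 with anti-CD8a. Leaving out 1 library gave 2 to 5 called members for APP-PS1 PBS against WT, 5 without WT replicate 4, and -0.084 to 0.060 for Inpp5d and -0.183 to 0.001 for Syk with anti-CD8a against WT. Without the Ttr-rich libraries, or without the animals numbered 85xx (Inpp5d 0.002 with anti-CD8a), 0 members and 0 pairs were called in each comparison with WT. These sets hold 3 or 4 libraries a group. APP-PS1 PBS against WT had 3 against 3 in both sets, as had anti-CD8a against WT without the 85xx animals. At that size no exact permutation p can fall under 0.05, so those counts of 0 were fixed in advance. Without the Ttr-rich libraries, the 11 lowest pairs of anti-CD8a against WT had an exact permutation adjusted p of 0.0545. All of these pairs stood at the smallest p that 4 against 3 libraries allows. A call would have needed more pairs at that p, so this count of 0 is not read as a loss of the differences. The excess of Trem2 over the markers in APP-PS1 PBS mice was 1.039 without the Ttr-rich libraries and 0.930 without the 85xx animals. The other causes were not tested. No paired analysis was possible because the labels give no replicate number shared between groups. Hcst is limited by its depth.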
